A study of Homo sapiens with 2 samples.

Results

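Cycling erythroblasts are red-cell precursors that still divide while they fill with haemoglobin, and 640 of the 36814 barcodes sequenced from 2 BG-HFOs (blood-generating heart-forming organoids) on day 14 were of this kind. A barcode is the tag of 1 droplet and stands here for 1 cell, a unique molecular identifier (UMI) stands for 1 captured transcript, and CPM are UMIs scaled to a total of 1000000 in the barcode or sum. The 640 were chosen from the counts themselves. They had 500 to 9000 genes and under 15% mitochondrial UMIs, at least 10000 CPM of HBZ and fewer than 1000 CPM of PF4, at least 3 UMIs of MKI67 and TOP2A together, none of CDH5 or PTPRC, and at most 3 of MYH6. HBZ encodes the embryonic zeta globin, MKI67 and TOP2A are expressed in dividing cells, and the other 4 genes mark megakaryocytes, endothelium, leukocytes and cardiomyocytes. Organoid 32.7 held 238 members among 16866 barcodes and organoid 33.10 held 402 among 19948. Across the libraries 100 barcodes occurred in both, 1 of which belonged to a member, and no barcode was a member in both.

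Both organoids were replicates of 1 condition, grown in Matrigel from hES3 NKX2.5-eGFP, a single established human embryonic stem cell line carrying a fluorescent reporter, by biphasic WNT modulation with added haemato-endothelial cytokines. Each organoid was dissociated on its own and gave 1 library, so there was no treated group, and comparisons were made between classes of barcodes. Library totals were 191152562 UMIs for organoid 32.7 and 233818881 for organoid 33.10. The members carried a median of 25032 and 18387 UMIs, with ranges of 2477 to 68558 and 1112 to 82589.

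Erythroid precursors leave the progenitor state, divide a few times under erythropoietin, and accumulate globin, haem and membrane proteins before they stop dividing. Iron enters through the transferrin receptor, is carried into mitochondria for haem synthesis, and is stored in ferritin. The first, primitive wave of the embryo makes zeta and epsilon globin together with alpha and gamma globin, whereas adult-type precursors make beta globin.

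The members were set beside 2 other classes. The first were 1406 erythroid barcodes that met every limit of the rule but held no UMI of MKI67 or TOP2A (399 and 1007 in organoids 32.7 and 33.10), called MKI67/TOP2A-null below. The second were 1040 cycling non-erythroid barcodes (409 and 631), which met the rule except that HBZ was below 2000 CPM. A further 400 erythroid barcodes (127 and 273) had 1 or 2 UMIs of MKI67 and TOP2A and lay between. For tests, UMIs were summed per class and organoid, which gave 6 sums, and tested in edgeR by quasi-likelihood, calling a gene at a Benjamini-Hochberg adjusted p under 0.05. The replicates were 2 organoids of 1 line, and p-values reflect no other spread. Values below are CPM of the class sum, given for organoid 32.7 first and organoid 33.10 second.

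By construction the gate genes separated the classes, and they are given without a test. HBZ had a median of 40330 CPM over the members of organoid 32.7, with a range of 10310 to 155000, and a median of 34450 over those of organoid 33.10, with a range of 10040 to 150500. The nearest cycling barcodes outside this limit had 9258 and 9950. MKI67 and TOP2A together had medians of 8 and 6 UMIs, with a maximum of 150 and 119. Just inside that limit 36 and 61 members had exactly 3 such UMIs, and just outside it 46 and 79 erythroid barcodes had 2. Before the limits on other cell types, 319 and 518 barcodes were rich in HBZ and cycling, of which 41 and 59 held CDH5 UMIs, 24 and 14 held PTPRC, 21 and 36 exceeded the MYH6 limit and 17 and 31 the PF4 limit.

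Erythroid markers that the rule did not use went with the label. AHSP, the chaperone of free alpha globin, stood at 688 and 763 in the members and at 1.06 and 2.26 in the cycling non-erythroid barcodes. The erythroid transcription factor KLF1 stood at 229 and 226 against 3.30 and 11.4, and GATA1, a master regulator of the lineage, at 115 and 103 against 14.1 and 24.2. All 3 genes were thus higher in the members of both organoids. This is a description with no test, since the 2 classes were split by HBZ, a gene of the same lineage.

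Cycling barcodes made up 31.2% of the 764 erythroid barcodes of organoid 32.7 (exact binomial 95% interval 27.9 to 34.6%) and 23.9% of the 1682 of organoid 33.10 (21.9 to 26.0%). Among non-erythroid barcodes that met the same limits the shares were 7.11% (6.46 to 7.80%) and 9.82% (9.11 to 10.6%). Intervals cover counting error only. The share depended on depth, because the rule counts raw UMIs. The members' median of 25032 and 18387 UMIs compared with 6762 and 7300 in the MKI67/TOP2A-null barcodes, and with every barcode thinned to 5000 UMIs the erythroid shares were 16.8% (13.8 to 20.2%) and 12.4% (10.7 to 14.4%), leaving out 216 and 402 shallower barcodes. The thinned shares of non-erythroid barcodes were 5.16% (4.44 to 5.96%) and 7.87% (7.07 to 8.74%), with 2347 left out in each organoid. These shares are descriptions with no test, since the genes they count are those of the rule. They count the 127 and 273 erythroid barcodes with 1 or 2 UMIs of MKI67 and TOP2A as not cycling. A list of S phase genes summed to 2858 and 2757 CPM in those barcodes. It summed to 3029 and 3048 in the members and to 1322 and 1252 in the null barcodes.

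**Figure D1:**
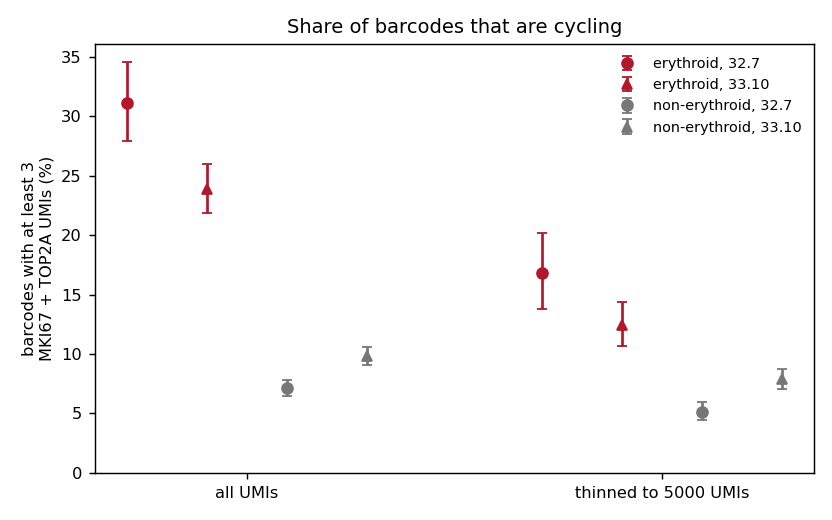
Share of barcodes with at least 3 UMIs of MKI67 and TOP2A (y axis, percent) for erythroid (red) and non-erythroid (grey) barcodes of organoid 32.7 (circles) and 33.10 (triangles), with all UMIs and after thinning to 5000 UMIs per barcode; bars are exact binomial 95% intervals. Erythroid shares of 31.2% and 23.9% fell to 16.8% and 12.4% after thinning and lay above the non-erythroid ones, which were 5.16% and 7.87% after thinning.

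Globins took 9.92% and 9.70% of the members' UMIs. HBZ, by which the members were chosen, supplied 46.2% and 44.2% of the globin UMIs. The gamma genes HBG2 and HBG1 supplied 22.7% and 23.3%, and 5.17% and 5.72%, and HBE1, the epsilon chain, 14.3% and 13.4%. The alpha genes HBA1 and HBA2 supplied 8.31% and 9.28%, and 3.19% and 3.88%. HBA1 and HBA2, like HBG1 and HBG2, are near-identical, so the split of reads within each pair is uncertain. The adult beta gene HBB stood at 1.63 and 2.15 CPM, or 10 and 18 UMIs in all.

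The abundant globins stood lower in the members than in the MKI67/TOP2A-null barcodes, where all globins took 13.8% and 12.6% of UMIs. HBE1 stood at 14160 and 13020 against 21780 and 17300. HBA1 stood at 8239 and 9000 against 14110 and 12980, HBA2 at 3166 and 3760 against 6922 and 6405, and HBG2 at 22460 and 22590 against 32210 and 33720. For each of these 4 genes both member sums lay below both others, and 1 of 9 globins passed, beside 15.7% of all genes tested, with none higher, as in DESeq2 and at an unadjusted p under 0.05. In the fit of all 6 sums these 4 did not pass, with log2 fold changes of -0.63 for HBE1, -0.76 for HBA1, -1.05 for HBA2 and -0.66 for HBG2 and adjusted p from 0.299 to 0.405. The spread in that fit included the cycling non-erythroid sums, in which HBE1 stood at 117 and 489 and HBA2 at 8.71 and 142. In a fit of the 4 erythroid sums alone, chosen after the data were seen, HBE1 (adjusted p = 0.00634), HBA1 (0.00034), HBA2 (0.000222), HBG1 (0.00324) and HBG2 (0.000131) passed. HBM, a minor alpha-like globin, was lower in the fit of 6 sums too, at 67.3 and 109 against 142 and 139 (log2 fold change -0.77 ± 0.19 (SE), adjusted p = 0.0294), but did not pass after thinning (adjusted p = 0.0623). HBQ1, the theta gene, stood at 96.3 and 85.8 against 75.4 and 71.2 and did not pass (adjusted p = 0.413).

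**Figure D2:**
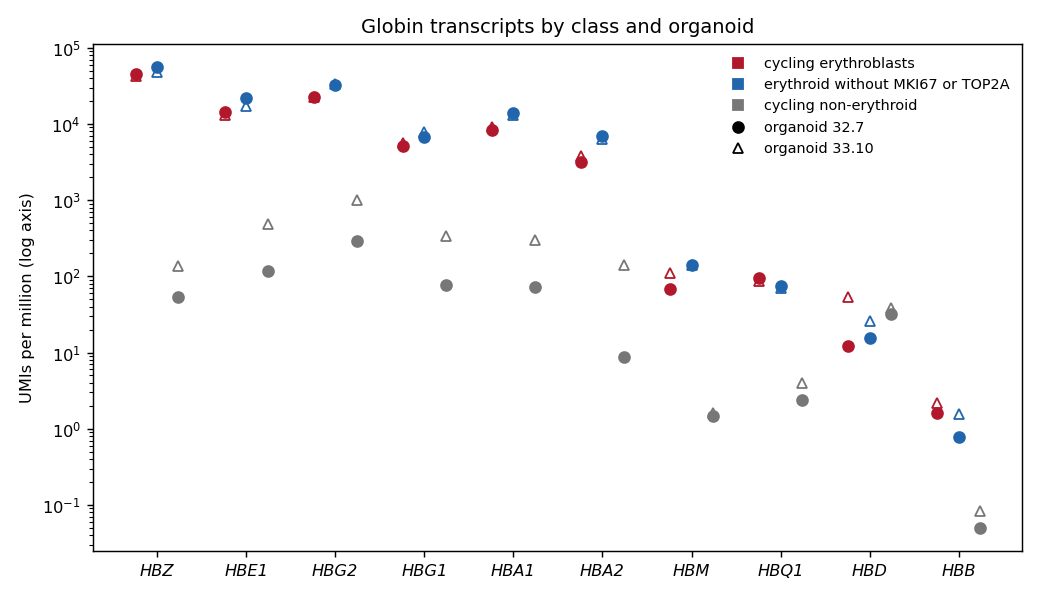
CPM (UMIs scaled to a total of 1000000; log axis) of the 10 globin genes in cycling erythroblasts (red), MKI67/TOP2A-null erythroid barcodes (blue) and cycling non-erythroid barcodes (grey), with 1 point per organoid (circle 32.7, open triangle 33.10); the HBB value of 0 in the grey class of organoid 32.7 is drawn at the foot. HBE1, HBG2, HBA1 and HBA2 sat lower in the red class than in the blue one in both organoids.

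Against the MKI67/TOP2A-null barcodes, 16348 genes were tested and 2570 passed (15.7%), 1553 higher (9.5%) and 1017 lower (6.22%) in the members. With the organoid as a block 3968 passed, 2214 higher and 1754 lower. In barcodes thinned to 10000 UMIs 1040 of 13735 did, 640 higher and 400 lower. List counts below under these 2 settings compare with these totals. Thinning left out all shallower barcodes and kept 205 and 324 members and 152 and 342 of the 399 and 1007 null barcodes, so a call lost there may follow from equal depth or from the smaller, deeper classes, which cannot be told apart. The genes of the S, G2/M, cyclin and histone lists are described without a p here, since the rule chose members by 2 genes of the same programme. In G2 and M phase genes the members' sum was 7774 and 7024 CPM, against 3447 and 2895 in the barcodes with 1 or 2 UMIs and 1466 and 1423 in the null ones. The S phase list summed to 3029 and 3048, against 2858 and 2757 and against 1322 and 1252. Barcodes with 1 or 2 UMIs thus lay near the members in S phase genes and between the classes in G2 and M phase genes. The 8 genes with the largest positive change outside these lists, among those of at least 50 CPM in the higher class, were KIF18B, KIF14, ASPM, KIF4A, DEPDC1, BUB1B, PRR11 and ARHGAP11A, most of them spindle or checkpoint genes, with log2 fold changes from 3.17 to 5.0. They too are given as a description.

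Part of the genes of the progenitor state were higher in the members. Of 13 genes tested in a list of early haematopoietic progenitor genes, 4 were higher, none was lower (nor in DESeq2 or at an unadjusted p under 0.05) and 9 did not pass, with a median log2 fold change of 0.35 against -0.04 over all genes, of which 9.5% were higher. MYB, a factor that keeps progenitors dividing, stood at 39.0 and 43.7 against 19.5 and 18.6 (log2 fold change 1.02 ± 0.23, adjusted p = 0.0207). CNRIP1 stood at 98.1 and 85.6 against 37.4 and 29.8 (1.36 ± 0.19, adjusted p = 0.00234). MYC stood at 178 and 126 against 91.7 and 60.4 (0.90 ± 0.23, adjusted p = 0.0317) and SPN, the surface sialoglycoprotein CD43, at 70.4 and 73.0 against 41.1 and 39.1 (0.74 ± 0.21, adjusted p = 0.0427). The member sums were above the others for all 4 genes. In thinned barcodes CNRIP1 passed (adjusted p = 0.00597), whereas MYB (0.0768), MYC (0.19) and SPN (0.152) did not. KIT, the stem cell factor receptor, was at 3.91 and 2.75 in the members and at 2.11 and 3.52 in the null barcodes.

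Nucleolar and MYC-associated genes followed the same direction. Of 14, 10 were higher and none lower, also at an unadjusted p under 0.05 and in DESeq2, with a median of 0.71, and 5 were higher in thinned barcodes. Of all genes 9.5% were higher. NCL, which encodes the nucleolar protein nucleolin, stood at 1052 and 869.9 against 442 and 410.0 (log2 fold change 1.07 ± 0.13, adjusted p = 0.00122). NOP56, a part of the complex that modifies ribosomal RNA, stood at 134 and 123 against 65.1 and 61.8 (0.91 ± 0.12, adjusted p = 0.00178). Of 82 ribosomal protein genes 24 were lower (beside 6.22% of all genes) and 1 was higher, with a median of -0.25. With the organoid as a block 37 were lower, beside 1754 of all 16348 genes. Without barcodes above the 90th percentile of UMIs 2 were lower, beside 147 of all 14391 genes tested there.

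Fetal-programme genes were higher in 4 of 8, beside 9.5% of all genes, and lower in none, in edgeR, in DESeq2 and at an unadjusted p under 0.05. LIN28B, which represses let-7 miRNAs, stood at 86.4 and 82.8 against 45.9 and 52.7 (0.67 ± 0.13, adjusted p = 0.0122). IGF2BP1, an RNA-binding protein of embryonic tissues, stood at 110.0 and 119 against 59.1 and 57.1 (0.88 ± 0.14, adjusted p = 0.00385) and was the 1 gene of the list that passed after thinning. LIN28A, at 6.68 and 5.39 against 1.85 and 1.65, and IGF2BP3, at 235 and 219.5 against 153 and 150.1, were the others that passed.

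Iron genes were called in both directions. The transferrin receptor TFRC was higher in the members, at 303 and 326 against 156 and 186 (0.77 ± 0.13, adjusted p = 0.00523), as were its relative TFR2, at 70.4 and 70.0 against 33.7 and 38.4, and the endosomal iron reductase STEAP3, at 14.5 and 14.5 against 6.06 and 7.25. TFRC passed after thinning, and TFR2 and STEAP3 did not. Of the 17 genes listed 3 were thus higher (5 with the organoid as a block), 5 were lower, all of which passed after thinning, and 9 did not pass, beside 9.5% higher and 6.22% lower of all genes. The ferritin light chain FTL stood at 4816 and 4739 against 10810 and 10290 (-1.25 ± 0.11, adjusted p = 0.000195) and the heavy chain FTH1 at 3937 and 4051 against 6076 and 6273 (-0.74 ± 0.09, adjusted p = 0.00126). NCOA4, the receptor that delivers ferritin to autophagy, stood at 109 and 111 against 193 and 238 (-1.08 ± 0.14, adjusted p = 0.00181). SLC25A37, the mitochondrial iron importer mitoferrin, stood at 1360 and 1570 against 2270 and 2751 (-0.88 ± 0.14, adjusted p = 0.00395). HMOX1, which breaks haem down, stood at 2.77 and 3.71 against 20.0 and 50.5 (-3.57 ± 0.44, adjusted p = 0.00122).

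Of 16 genes of haem synthesis 1 was higher, 2 were lower and 13 did not pass (median -0.18), beside 15.7% of all genes called, and with the organoid as a block 4 were lower. ABCB10, a mitochondrial transporter needed for haem synthesis, was higher at 183 and 160.0 against 94.9 and 103 (0.69 ± 0.12, adjusted p = 0.00819). The porphyrin transporter ABCB6 was lower, at 29.8 and 39.4 against 47.7 and 59.2 (-0.74 ± 0.18, adjusted p = 0.0248). ALAS2, which catalyses the first step, stood at 415 and 474 against 665 and 657 and did not pass (-0.68, adjusted p = 0.19), but passed with the organoid as a block (adjusted p = 0.0445).

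The transcription factors that define the lineage did not pass. GATA1 stood at 115 and 103 in the members and 115 and 107 in the null barcodes, a log2 difference of -0.13 ± 0.20 (adjusted p = 0.693). KLF1 stood at 229 and 226 against 209 and 199 (0.05 ± 0.30, adjusted p = 0.925). TAL1, which binds DNA in a complex with GATA1, stood at 81.2 and 78.6 against 70.9 and 90.8 (-0.13 ± 0.29, adjusted p = 0.8). Of the 20 factors tested 4 were higher, namely MYB, LDB1, E2F2 and E2F4, 2 were lower, near the share of 6.22% over all genes (9.5% were higher), and 14 did not pass, and with the block 6 were higher and 4 lower. E2F2 and E2F4 share a family with E2F1 and E2F3 of the cyclin list, which is described here without a p. Their calls are likewise only a description, since the rule chose members by genes of the cell cycle. FOXO3, which drives late maturation genes, was lower at 37.7 and 49.8 against 68.5 and 89.4 (-0.96 ± 0.18, adjusted p = 0.0099), and GFI1B, a repressor of progenitor genes, was lower at 34.6 and 42.2 against 52.2 and 58.0 (-0.63 ± 0.16, adjusted p = 0.0343). FOXO3 and GFI1B passed after thinning and the 4 higher genes did not.

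Genes of terminal maturation that passed were lower in the members. None of 22 was higher in edgeR or DESeq2 (1 at an unadjusted p under 0.05) and 7 were lower, beside 6.22% of all genes, with a median of -0.53. After thinning 5 were lower, beside 400 of all 13735 genes, and with the organoid as a block 13, beside 1754 of all 16348. The list had many genes of autophagy and protein turnover. UBE2H, a ubiquitin-conjugating enzyme, stood at 47.1 and 53.0 against 109 and 130.1 (-1.36 ± 0.13, adjusted p = 0.000231). MAP1LC3B, a protein of the autophagosome membrane, stood at 83.0 and 86.0 against 146 and 178 (-1.05 ± 0.12, adjusted p = 0.0009). BNIP3L, the receptor by which maturing red cells clear mitochondria, stood at 154 and 178 against 224 and 272 (-0.68 ± 0.13, adjusted p = 0.00993). None of 13 transcripts of the mitochondrial genome passed in edgeR, with a median of 0.23, while 4 had an unadjusted p under 0.05, 1 passed in DESeq2 and 4 with the organoid as a block, all of them higher. AHSP stood at 688 and 763 against 566 and 581 and did not pass (0.23 ± 0.15, adjusted p = 0.315). HEMGN, a nuclear protein of the erythroid lineage, stood at 103 and 127 against 55.6 and 89.99 (0.54 ± 0.21, adjusted p = 0.108) and passed with the block (adjusted p = 0.00462).

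**Figure D3:**
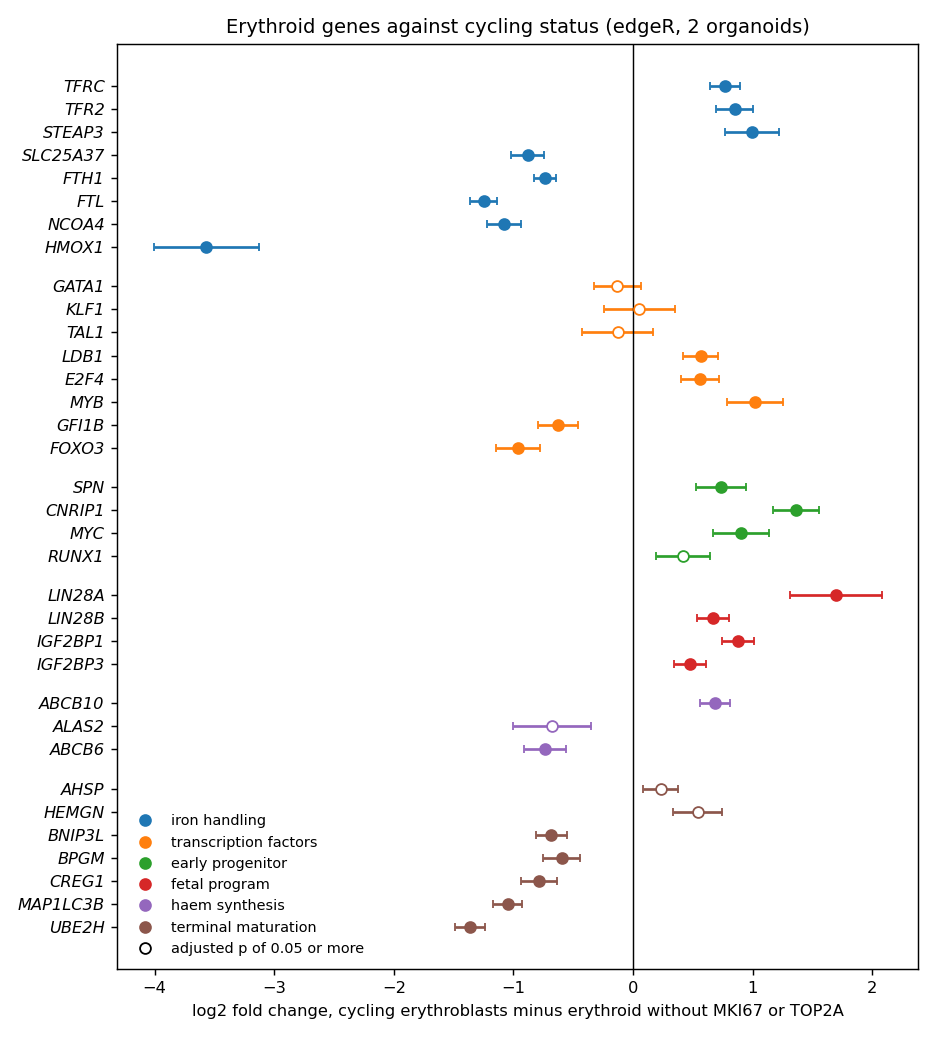
Log2 fold change (x axis) of named erythroid genes, cycling erythroblasts minus MKI67/TOP2A-null erythroid barcodes, from edgeR on sums of 2 organoids; bars are standard errors and open symbols did not pass an adjusted p of 0.05. Genes are grouped by list in colour; TFRC (0.77) and MYB (1.02) lay to the right and FTL (-1.25) and UBE2H (-1.36) to the left, with GATA1 and KLF1 near 0.

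Among 27 genes of the red-cell membrane and its skeleton 3 were higher (ADD2 and the scavenger receptor CD36 among them), 2 lower and 22 did not pass, with a median of -0.32, and with the block 5 were higher and 8 lower. Without the block the counts lay near the 9.5% higher and 6.22% lower of all genes tested. With the block 2214 of all 16348 genes were higher and 1754 lower. The adducin ADD2 of the skeleton was higher at 17.0 and 18.0 against 5.01 and 6.26 (1.5 ± 0.22, adjusted p = 0.00311). XK, a membrane protein linked to the Kell antigen, was lower at 40.3 and 46.3 against 86.5 and 104 (-1.24 ± 0.20, adjusted p = 0.00448), and so was the glucose transporter SLC2A1 (-0.76 ± 0.17, adjusted p = 0.0175). ADD2 and CD36 did not pass after thinning, and XK and SLC2A1 did.

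In erythropoietin and KIT signalling 2 of 13 genes were higher, 1 was lower and 10 did not pass, beside 9.5% higher and 6.22% lower of all genes tested, so that the list is not set apart by its counts. With the block 3 were higher and 2 lower. PIM1, a survival kinase induced by STAT5, stood at 131 and 129.6 against 86.2 and 75.5 (0.59 ± 0.13, adjusted p = 0.0178), and the kinase LYN at 100.1 and 97.0 against 39.8 and 51.4 (0.99 ± 0.21, adjusted p = 0.0161). SOCS3, a feedback inhibitor of JAK kinases, was lower at 7.83 and 10.4 against 24.8 and 16.4 (-1.22 ± 0.29, adjusted p = 0.0229). None of the 3 passed after thinning. The receptor EPOR stood at 77.4 and 66.4 against 60.9 and 52.4 (0.24 ± 0.16, adjusted p = 0.33). Of 13 antioxidant genes 2 were lower (PRDX6 and GCLM), and of 18 glycolytic genes 3 were lower (SLC2A1, ALDOA and GAPDH); neither list had a higher gene in edgeR or DESeq2, though 3 and 2 were higher at an unadjusted p under 0.05 and 3 and 1 with the block.

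Markers of other cell types were measured in the same sums, because free RNA and doublets were not removed. The endothelial list summed to 132 and 107 in the members and 212 and 157 in the null barcodes, the cardiomyocyte list to 153 and 124 against 357 and 177, and the mesenchymal and epicardial list to 180 and 195 against 465 and 286. EGFL7, TNNT2 and COL3A1 were the most abundant genes of these lists in the members. Of 6 endothelial genes tested 2 were lower, of 6 cardiomyocyte genes 1 and of 9 mesenchymal genes 3 (4, 4 and 6 with the organoid as a block), and no tested gene of the 3 lists was higher at an unadjusted p under 0.05. Of all genes 6.22% were lower, and the counts of 1 are single genes. The megakaryocyte list summed to 87.2 and 110 against 113 and 127 (1 of 7 lower, 2 with the block), the myeloid list to 47.4 and 54.9 against 64.8 and 44.8 (none of 7 passed in edgeR or DESeq2, 1 was lower with the block, and 1 had an unadjusted edgeR p under 0.05), and foregut endoderm to 5.22 and 3.71 against 7.64 and 3.85 (none of 3 passed in either tool or had an unadjusted p under 0.05). Of 4 eosinophil and mast genes tested 1 was higher, beside 9.5% of all genes, and none was lower in edgeR or DESeq2. It was the only 1 of the 4 with a positive change, and the median was -0.32. This gene, PRG2, an eosinophil granule protein, stood at 63.1 and 86.8 against 30.3 and 21.0 (1.48 ± 0.35, adjusted p = 0.0233), not passing after thinning (adjusted p = 0.133). TPSAB1, a mast cell tryptase, was at 0 in the members. Members in which 10 mesenchymal, cardiac, endothelial and endodermal genes exceeded 1000 CPM together numbered 38 (16.0%) and 38 (9.45%), against 127 (31.8%) and 137 (13.6%) of the null barcodes. Without such barcodes 1348 genes were higher and 1022 lower, and FTL, FTH1, SLC25A37, TFRC, CNRIP1, FOXO3, GFI1B, MYB and UBE2H still passed, whereas MYC, SPN, IGF2BP3, PIM1, LDB1 and E2F4 did not. Without barcodes above the 90th percentile of UMIs, which left 120 and 274 members, 601 genes passed, with FTL, FTH1, NCOA4, HMOX1, UBE2H, MAP1LC3B, CNRIP1, IGF2BP1, NCL and FOXO3 among them and without TFRC, MYB, SLC25A37, BNIP3L and the haem genes. The genes called higher then numbered 1 in the progenitor list, 3 in the nucleolar one, 1 in the fetal one and 0 in the iron one, and those lower 4 in the iron list and 3 in that of terminal maturation. Of all 14391 genes tested there 454 were higher and 147 lower. Genes outside the lists with the largest negative change included MT1E, KRT18, SELENOP, TNNI3, FLT1 and IGFBP3, which are not erythroid markers, along with YPEL3 and AIMP2. MT1E, KRT18, SELENOP, TNNI3 and YPEL3 passed under all 11 alternative settings, among them the removal of marker-rich barcodes. FLT1 and AIMP2 passed under 10 of the 11 and IGFBP3 under 9. KRT18, a keratin of simple epithelia, stood at 83.3 and 97.6 against 261 and 275 (-1.67 ± 0.14, adjusted p = 0.000123). Removing 10% of the profile of all barcodes from each sum left 2409 calls, without MYB, MYC, SPN, IGF2BP3, LDB1 and E2F4.

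The members were not uniform, and many of their erythroid genes varied with the HBZ level. They were divided at 20000 and 40000 CPM of HBZ into 43, 75 and 120 barcodes in organoid 32.7 and 83, 142 and 177 in organoid 33.10. Levels in this division are CPM of the UMIs that are not globin, so that globins cannot dilute the rest, and are a description with no test. Of 8689 genes with at least 50 UMIs in each organoid, 6.45% rose at each step in both organoids and 26.0% fell. Of the 16 haem genes 11 rose throughout and none fell, and of 24 measured membrane genes 13 rose and 1 fell. Of 8 measured early progenitor genes none rose and 5 fell. Other erythroid lists moved less as a whole. Of 16 measured iron genes 4 rose and 1 fell, of 18 transcription factors 3 rose and 2 fell, and of 19 terminal maturation genes 3 rose and 1 fell.

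MYB went from 69.9 through 54.9 to 23.6 in organoid 32.7 and from 83.9 through 47.6 to 27.6 in organoid 33.10. CNRIP1 went from 171 through 139 to 60.7 and from 133 through 112 to 56.3, and SPN from 110.2 through 98.3 to 50.2 and from 111 through 84.0 to 60.2. The nucleolar NCL ended at 826 and 679 after starting at 1492 and 1228. TFRC was about level in the lower divisions, at 455 and 416 in organoid 32.7 and 398 and 410.0 in organoid 33.10, and lower in the top one, at 229.5 and 294.5. MYB, CNRIP1, SPN and NCL, higher in members than in null barcodes, were thus highest in the members with least HBZ.

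In the opposite direction, the anion exchanger SLC4A1 (band 3) went from 17.0 through 53.8 to 245 and from 47.4 through 124 to 269. HEMGN went from 18.8 through 86.7 to 176 and from 27.2 through 99.3 to 245. ALAS2 went from 230.2 through 347 to 641 and from 362 through 451 to 689, and SLC25A37 from 595 through 1060 to 2222 and from 813 through 1563 to 2453. EPB42, protein 4.2 of the membrane skeleton, went from 11.7 through 17.6 to 37.5 and from 13.1 through 35.2 to 45.7. GATA1 stayed between 108 and 133 in both organoids, with no common direction. The erythroid membrane and haem genes named here thus rose in both organoids while GATA1 did not.

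**Figure D4:**
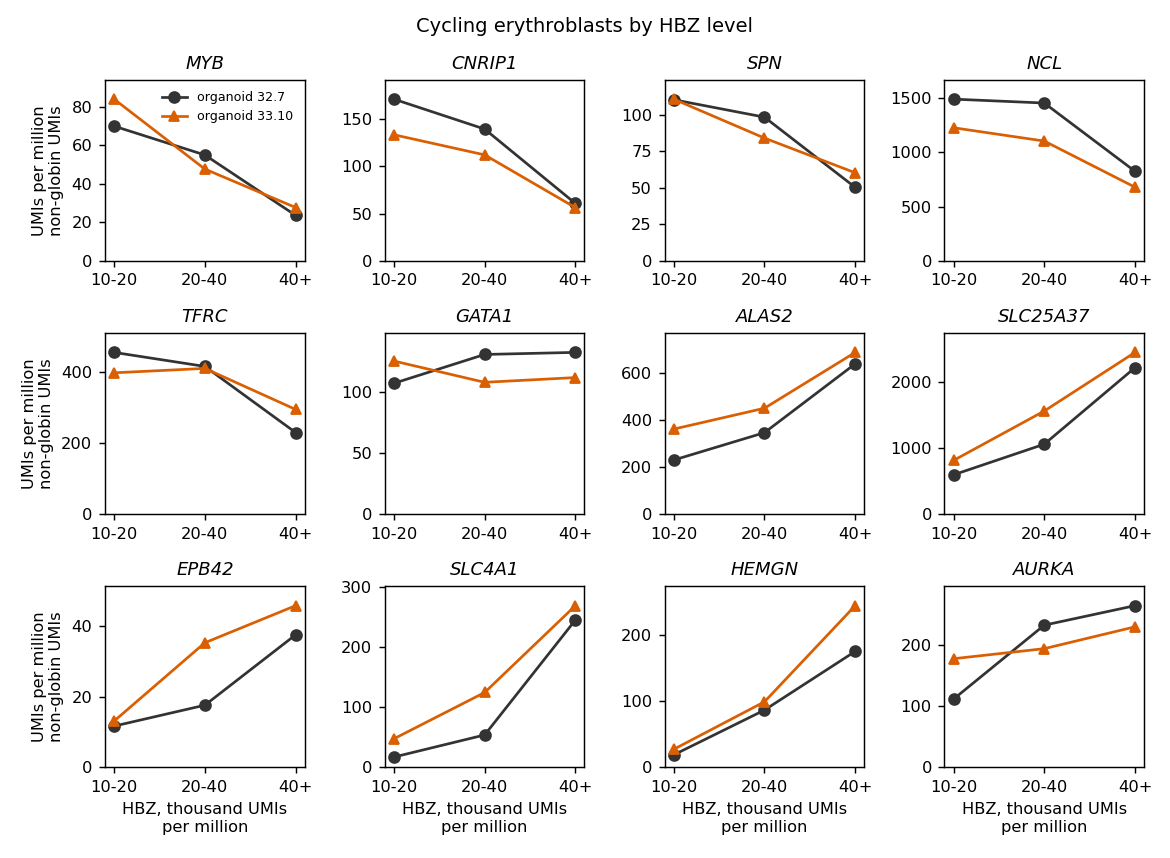
CPM of non-globin UMIs (y axis, from 0) of 12 genes in cycling erythroblasts with 10000 to 20000, 20000 to 40000 and at least 40000 CPM of HBZ (x axis), for organoid 32.7 (circles) and 33.10 (triangles). MYB, CNRIP1, SPN and NCL fell and ALAS2, SLC25A37, EPB42, SLC4A1 and HEMGN rose in both organoids.

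Some markers of other cell types were also highest in the members with least HBZ, and others were not. The endothelial list summed to 291, 132 and 93.9 in organoid 32.7 and to 158, 109 and 103 in organoid 33.10, and the myeloid list to 94.1, 54.4 and 33.6 and to 159.6, 39.7 and 19.7, so both fell at each step. The mesenchymal and epicardial list summed to 569.7, 81.3 and 123 and to 387, 214 and 114. The cardiomyocyte list summed to 359, 117 and 124 and to 143, 115 and 153, and the megakaryocyte list to 99.4, 82.4 and 106 and to 166, 117 and 100, so that neither fell at each step in both organoids. COL3A1, a fibroblast collagen, went from 188 through 19.8 to 37.5 and from 131 through 61.8 to 39.5, and HMGA2 from 79.7 through 9.33 to 4.25 and from 102 through 15.4 to 10.2. A division without the members that carried over 1000 CPM of the 10 other-type genes was added after the data were seen. It kept 25, 65 and 110 of the 43, 75 and 120 members of organoid 32.7, so the lowest division lost the largest part. Organoid 33.10 kept 364 of its 402 members in all. HMGA2 was then lower in each division but still fell, at 15.1, 6.97 and 1.62 and 24.4, 4.66 and 2.81. The myeloid list fell then as well, at 91.9, 52.8 and 32.0 and at 188, 42.0 and 20.0. So did the endothelial list, at 157.4, 108.6 and 83.79 and at 126.4, 97.05 and 93.51. The part of these 2 lists in the other differences by HBZ level was not tested. MYB was then 90.6, 58.0 and 23.9 and 98.1, 47.5 and 28.1, and all 8 early progenitor genes fell at each step in both organoids, beside 25.3% of 8108 genes. Haem genes rose in 10 of 16, beside 7.09% of all genes. PRG2 went from 203 through 68.6 to 13.5 in organoid 32.7 and from 101 through 195 to 6.25 in organoid 33.10, and the whole eosinophil and mast list of 5 genes summed to 237, 80.2 and 23.2 and to 123, 210 and 13.2.

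Promoters of ALAS2 and EPB42, which rose with HBZ, are shown as examples with matches to the letters that erythroid factors bind. Each run is the 250 bases before the gene's start from RefSeq (GRCh38.p14), 5′ to 3′ on the gene's strand, and capitals mark AGATAA (bound by GATA factors), CACCC (bound by KLF factors) and CCAAT (bound by NF-Y) on either strand. ALAS2 lies on the minus strand and its run is chrX:55030978-55031227, and EPB42 lies on the minus strand with the run chr15:43221019-43221268.
ALAS2: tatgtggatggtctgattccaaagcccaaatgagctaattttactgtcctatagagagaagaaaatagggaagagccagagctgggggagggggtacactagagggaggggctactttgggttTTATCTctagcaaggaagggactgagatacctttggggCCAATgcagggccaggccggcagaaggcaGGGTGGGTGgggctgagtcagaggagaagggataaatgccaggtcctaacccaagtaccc
EPB42: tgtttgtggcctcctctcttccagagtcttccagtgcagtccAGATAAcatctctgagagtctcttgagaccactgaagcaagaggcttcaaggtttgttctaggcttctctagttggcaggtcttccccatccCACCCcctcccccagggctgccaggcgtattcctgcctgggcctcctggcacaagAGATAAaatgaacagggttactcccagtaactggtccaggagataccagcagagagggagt
ALAS2 held AGATAA 127 bases before the start and a pair of CACCC matches that share 1 base, 60 and 56 bases before it. EPB42 held AGATAA 208 and 61 bases before the start and CACCC at 116. The promoter of HEMGN, which also rose with HBZ, was searched too and had 0 matches to these letters. AGATAA occurred in 9.37% of 27303 promoters of this length, in 23.8% of 21 membrane genes and in 14.3% of 14 haem genes with an entry, and in 0 of 46 G2 and M phase genes. CACCC occurred in 53.7% of all promoters and in 71.4% and 57.1% of the membrane and haem genes. A match describes the letters only.

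Position in the cycle was read from the S and G2/M lists in members thinned to 10000 UMIs. In 205 members of organoid 32.7 the S list had a median of 28 UMIs and the G2/M list 60, and in 324 of organoid 33.10 the medians were 29 and 51. The lists ran against each other across barcodes, with Pearson's r of -0.43 and -0.27 and Spearman's rho of -0.44 and -0.25. The cycling non-erythroid barcodes gave Pearson's r of -0.31 and -0.33 and Spearman's rho of -0.22 and -0.24 (300 and 471 barcodes), so the order of the classes in organoid 33.10 depended on the coefficient. Summed globins ran against the S list (rho -0.43 and -0.21), while with the G2/M list rho was 0.21 in organoid 32.7 and -0.08 in organoid 33.10. All points of an organoid share 1 library and a fixed total of UMIs, and these are descriptions. By HBZ division, AURKA rose from 111 through 232 to 264 and from 177 through 193 to 229, whereas the G2/M list summed to 5942, 8149 and 10130 in organoid 32.7 but to 7659, 7370 and 8208 in organoid 33.10.

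Against the cycling non-erythroid barcodes, 9277 of 16348 genes passed (56.7%), 4346 higher (26.6%) and 4931 lower (30.2%). The S phase list summed to 3029 and 3048 CPM in the members and 3185 and 3526 in the non-erythroid barcodes, and the G2 and M phase list to 7774 and 7024 against 7530 and 7478, so as shares of all UMIs these lists were about level. The cyclin list summed to 927 and 930.1 against 1318 and 1259 and the replication histones to 3599 and 3314 against 4328 and 4287, both lower in the members. Ribosomal protein genes took 258200 and 266700 CPM in the members against 150100 and 141500, and 80 of 82 were higher. After TMM scaling, which sets such abundant genes aside, 77 of 135 genes of the 4 cell-cycle lists were higher, 12 were lower and 46 did not pass, with a median of 0.48. With library sizes that leave out only globins and no TMM, the median of all genes moved from -0.04 to -0.48, 23 cell-cycle genes were higher and 25 lower, and 21.8% of all calls were higher in place of 46.9%. The change of scaling moves all genes together, so genes near 0 change sign by construction, and 23 cell-cycle genes were higher and 12 lower past the threshold under both.

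The 5 called cell-cycle genes with the largest positive change were AURKA, CDCA7, CCND3, CDC20 and HIST1H2AC, and the 5 with the largest negative change were CCND1, CCNE2, CCNE1, CDKN2D and CDKN1C. AURKA, a mitotic kinase, stood at 200.2 and 184 against 81.1 and 95.2 (log2 fold change 1.72 ± 0.13, adjusted p = 9.68e-06), and CDC20, which activates the anaphase-promoting complex, at 118 and 106 against 64.9 and 52.7 (1.53 ± 0.15, adjusted p = 5.51e-05). CDCA7, a chromatin protein of S phase, stood at 62.1 and 63.7 against 29.4 and 30.6 (1.66 ± 0.14, adjusted p = 1.93e-05). The D cyclins differed among themselves. CCND3, the D cyclin needed by erythroid precursors, stood at 101 and 103 against 44.8 and 58.9 (1.57 ± 0.14, adjusted p = 2.85e-05), whereas CCND1 stood at 8.31 and 2.99 against 76.7 and 70.6 (-3.17 ± 0.33, adjusted p = 6.25e-05). CCND2 stood at 56.4 and 68.0 against 69.8 and 72.3, lower in CPM but higher after TMM (0.40 ± 0.13, adjusted p = 0.0232).

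The E cyclins, which act at the start of S phase, were lower in the members. CCNE1 stood at 6.52 and 3.35 against 23.4 and 18.8 (-1.53 ± 0.32, adjusted p = 0.00326) and CCNE2 at 4.73 and 3.83 against 18.9 and 20.6 (-1.62 ± 0.24, adjusted p = 0.00055). The kinase CDK6, partner of D cyclins, stood at 94.2 and 87.6 against 270.5 and 218 (-0.83 ± 0.14, adjusted p = 0.00101). Of the inhibitors, CDKN2D stood at 11.1 and 8.26 against 34.1 and 37.0 (-1.30 ± 0.19, adjusted p = 0.000472) and CDKN1C at 34.7 and 25.4 against 127 and 74.0 (-1.15 ± 0.27, adjusted p = 0.00654). HIST1H2AC, a polyadenylated histone, was higher, at 25.6 and 69.8 against 22.4 and 28.3 (1.51 ± 0.36, adjusted p = 0.00695). AURKA, CDC20, CDCA7, CCND3 and HIST1H2AC stayed higher, and CCND1, CCNE1, CCNE2, CDK6, CDKN2D and CDKN1C stayed lower, past the threshold under both scalings. CDKN2D (adjusted p = 0.068) and CDKN1C (0.108) did not pass without barcodes above the 90th percentile of UMIs. Of the non-erythroid barcodes 87.5% and 80.4% carried over 1000 CPM of the 10 other-type genes, and their mesenchymal and epicardial list summed to 3312 and 2433, against 180 and 195 in the members. Their eosinophil and mast list summed to 623 and 1456. The part of this mixed make-up in the differences was not tested.

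By contrast with the MKI67/TOP2A-null erythroid barcodes, CCND3 stood lower in the members (101 and 103 against 147 and 159.7), as did CDKN1C (34.7 and 25.4 against 96.5 and 75.4) and HIST1H2AC (25.6 and 69.8 against 163 and 191), which are given without a test. CCND3 was thus lowest in the non-erythroid cycling barcodes, intermediate in the members and highest in the null erythroid barcodes of both organoids. CDKN1C, an inhibitor of cyclin-dependent kinases, was lowest in the members.

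**Figure D5:**
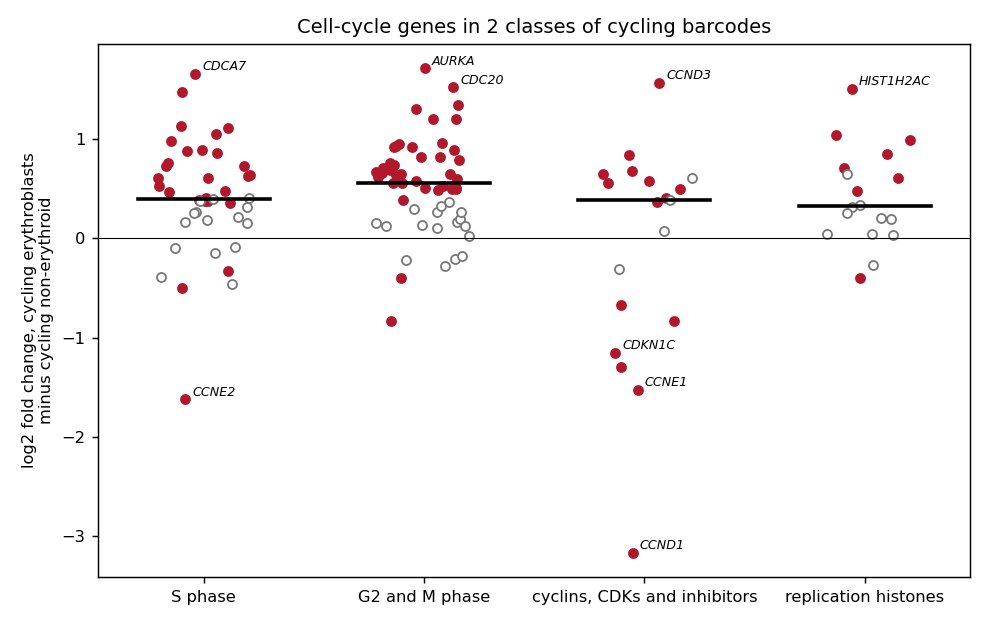
Log2 fold change (y axis), cycling erythroblasts minus cycling non-erythroid barcodes after TMM scaling, for genes of 4 cell-cycle lists (x axis); filled symbols passed an adjusted p of 0.05 and bars are medians. Most genes lay above 0, AURKA (1.72) and CCND3 (1.57) among the highest and CCND1 (-3.17) the lowest, and without TMM the median over the 4 lists moves from 0.48 to 0.03.

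The promoters of CDC20 and TOP2A are shown to compare dividing-cell genes with the erythroid ones above. Capitals mark CCAAT and TTTGAA, the core of the cell-cycle homology region, on either strand. CDC20 lies on the plus strand (chr1:43358731-43358980) and TOP2A on the minus strand (chr17:40417897-40418146).
CDC20: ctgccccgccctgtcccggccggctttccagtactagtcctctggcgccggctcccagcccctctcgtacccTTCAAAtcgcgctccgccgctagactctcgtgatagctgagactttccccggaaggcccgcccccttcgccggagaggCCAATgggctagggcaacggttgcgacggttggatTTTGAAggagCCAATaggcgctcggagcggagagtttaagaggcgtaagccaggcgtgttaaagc
TOP2A: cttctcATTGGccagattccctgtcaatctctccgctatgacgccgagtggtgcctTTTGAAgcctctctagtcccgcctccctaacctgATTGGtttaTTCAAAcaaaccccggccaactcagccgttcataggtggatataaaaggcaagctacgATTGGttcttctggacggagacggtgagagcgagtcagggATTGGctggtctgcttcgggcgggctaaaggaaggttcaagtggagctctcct
CDC20 held TTTGAA 178 and 65 bases and CCAAT 100 and 55 bases before the start. TOP2A held CCAAT 244, 160, 93 and 53 bases and TTTGAA 194 and 151 bases before it. CCNB1, which encodes cyclin B1, was searched as well and held CCAAT 87 and 55 bases before the start but no TTTGAA. Of 46 G2 and M phase promoters 69.6% held CCAAT, 50% held TTTGAA and 43.5% held both, against 33.0%, 13.6% and 4.85% of all promoters. In 32 S phase promoters TTTGAA occurred in 6.25%, and TTCCCGC, a sequence bound by E2F factors, in 43.8%, against 5.59% of all promoters and 6.52% of the G2 and M phase ones. Whether any of these letters has a part in the levels was not tested.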

How the data were processed

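Single-cell 3′ libraries (10x v3.1) of 2 day-14 organoids were analysed from the deposited matrices, which hold raw UMI counts that the authors made with Cell Ranger 7.0.0 on GRCh38 with intronic reads included. These counts precede their removal of free RNA and equalisation of depth, and no doublet caller was run here, so doublets and free RNA remain. Totals were 191152562 and 233818881 UMIs. Members and gene lists were chosen with earlier results of these data known. Classes were set by thresholds on counts, and class sums (6134355 and 8354065 UMIs in the members) were fitted in edgeR 4.0.16 (R 4.3.3; TMM, filterByExpr, quasi-likelihood test, Benjamini-Hochberg), leaving out the 7 gate genes, with 6 sums in 1 fit and no block. DESeq2 1.42.0, a fit without filter, other scalings, thinning to 10000 UMIs, other thresholds and removal of deep or marker-rich barcodes were alternatives. The fit of 4 sums and the division by HBZ without marker-rich barcodes were added after the data were seen. Sums of 1 organoid come from that organoid, which pairs them. Over 9304 genes the difference between organoids correlated at 0.298 between members and null barcodes, 0.23 between members and cycling non-erythroid barcodes, and 0.324 between the last 2 classes. Named genes were the gate and marker genes, all globins, the 4 most abundant genes of each list, progenitor, factor and signalling genes of at least 20 CPM, the 8 largest changes each way against null barcodes among called genes of at least 50 CPM that moved the same way in both organoids, and the 5 largest each way among called cell-cycle genes. Other genes named from the lists were chosen after their values were seen, and a few genes under the rule are not reported here. Intervals are exact binomial (95%) and cover counting error only. Genes of a list were ordered by abundance from 3′ UMIs, which were not divided by gene length. Promoters came from RefSeq (GRCh38.p14), where 257 of 369 list genes had an entry, and Python 3.11.15 was used throughout.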

Additional observations from a re-analysis of the deposited data

How the results depend on the processing

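Against MKI67/TOP2A-null barcodes, thinning to 10000 UMIs, which also left out shallower barcodes, gave 640 genes higher, 400 lower and 1040 in all, of which 997 were also called in the fit of 6 sums. Without barcodes above the 90th percentile of UMIs the counts were 454, 147 and 601 (597 shared), and with HBZ of at least 30000 CPM in both classes 750, 404 and 1154. Without a filter on low counts 1738 genes were lower, and with the replicate block (organoid) 1754 were lower and 3968 called. No called gene examined singly was lost with the block, and 22 of 116 genes newly passed. COL1A1, a gene of the mesenchymal list, turned to 0.59 without marker-rich barcodes and did not pass (edgeR, adjusted p = 0.121). Those barcodes were themselves chosen by summed genes of other cell types, mesenchymal ones included. Their removal acts on such genes by construction, so this value cannot show a change of direction between the classes. Against cycling non-erythroid barcodes, 2024 genes were higher with library sizes without globins and no TMM and 2729 without the deepest barcodes. Cell-cycle genes higher numbered 23 and 47 under these 2 settings, and those lower 25 under the first and 7 in DESeq2. With the first, TYMS was at -0.04, ATAD2 at -0.05, CDK4 at -0.08 and HMGN2 at -0.41, the scaling moving the median of all genes from -0.04 to -0.48. The mean cycling share of 27.5 ± 5.13% (SD, n = 2) was 14.6% with barcodes thinned to 5000 UMIs, 16.9% with at least 6 UMIs of MKI67 and TOP2A and 19.2% without the deepest barcodes, and ranged from 23.9 to 31.2% leaving out each organoid. Leaving out an organoid leaves 1 sum per class and no residual degrees of freedom, so no calls can be counted. No called gene among the 116 and 25 examined singly in the 2 comparisons changed sign. The 8 largest changes each way against null barcodes were chosen for the same direction in both organoids. Those genes could not change sign and say nothing here. The depth of a barcode limits what 0 UMIs of MKI67 and TOP2A can show.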

Other observations

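Cycling barcodes of intermediate HBZ, 2000 to 10000 CPM, belonged to neither class and numbered 34 in organoid 32.7 and 58 in organoid 33.10, with median HBZ of 5400 and 5644 CPM. Erythroid barcodes with 1 or 2 UMIs of MKI67 and TOP2A had median depths of 12647 and 11040 UMIs. Their nucleolar and MYC-associated list summed to 5845 and 4503 CPM, against 5930 and 5148 in the members and 3621 and 3146 in the null barcodes, and their iron list to 13510 and 15150, against 12860 and 13130 and against 21940 and 22170. These values are descriptions with no test.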
